A study of Mus musculus with 24 samples.

Results

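The genes described here are the EGF receptor family of receptor tyrosine kinases, 5 of its ligands and 1 inhibitor, followed through the conversion of mouse fibroblasts towards heart muscle. The 10 members are the receptors Egfr, Erbb2, Erbb3 and Erbb4, the ligands Hbegf, Areg, Ereg, Tgfa and Nrg1, and the inhibitor Errfi1. They were named by symbol, with earlier results of these data known, and are 10 of the 47967 genes of the count table. Each symbol matched 1 gene, and all 10 were among the 17576 genes with enough counts to be tested. The cells were mouse embryonic fibroblasts, connective-tissue cells grown from C57BL/6 embryos of embryonic day 13.5 to 14.5. They were transduced with retroviruses carrying the cocktails GMT, GHMT or AGHMT, or mock-treated, and RNA was taken 2 or 7 days later, which gives 8 groups of 3 libraries. The letters usually stand for the cardiac transcription factors Gata4, Mef2c and Tbx5, with Hand2 added in GHMT and the kinase Akt1 added in AGHMT. All groups, mock included, are primary fibroblasts of 1 strain with no other engineered allele named in the labels. The labels leave unsaid whether mock cells met an empty virus and whether the 3 libraries of a group came from separate cultures. The p-values below can therefore speak only for the scatter among these libraries, and that scatter may be technical.

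EGF receptor signalling starts when a ligand, made as a membrane-bound precursor and cut free by a protease, binds a receptor and makes it pair with a like or an unlike receptor. EGFR binds amphiregulin, TGF-alpha, HB-EGF and epiregulin, ERBB4 binds HB-EGF, epiregulin and the neuregulins, and ERBB3 binds the neuregulins. ERBB2 has no known ligand of its own and serves as the partner of the others, and ERBB3 has little kinase activity of its own. The pairs switch on the Ras-ERK and PI3K-AKT cascades. ERRFI1, also called MIG6, is induced by that signalling and binds the kinase domain of the receptors to damp it. In the heart, neuregulin from the endocardium acts on ERBB2 and ERBB4 of the muscle cells and is needed for trabeculae to form, and HB-EGF and EGFR shape the valves.

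The libraries held 29345957 to 37495178 counts. Levels are in CPM, counts scaled to library size with TMM factors, and differences are log2 fold changes ± SE from edgeR's quasi-likelihood test, called at an adjusted p under 0.05. The genes of the cocktails matched the labels: at both days Gata4, Mef2c and Tbx5 were higher in all cocktail libraries than in all mock libraries, and Hand2 was higher only where the cocktail name has an H. Akt1, well expressed in every group, was higher in all AGHMT libraries than in all others. Fibroblast markers (10 genes) summed to 34258 to 37547 CPM in mock at day 2 and 65332 to 70936 CPM at day 7, and to 10883 to 11774 CPM in GMT, 13367 to 13857 CPM in GHMT and 13903 to 14624 CPM in AGHMT at day 7. Heart muscle markers (10 genes) summed to 21.3 to 24.6 CPM in mock and to 20111 to 21110.0 CPM in AGHMT at day 7. In such bulk RNA, fewer cells of a type and less RNA per cell cannot be told apart. The AGHMT day 2 library of replicate 3 lay furthest from its group, and results it changed are given with and without it.

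Most members moved under every cocktail, in a setting where most tested genes moved too. At day 2, 6 of the 10 members were higher and 4 lower under GMT than in mock, where 33.9% and 33.1% of all tested genes were higher and lower. Under GHMT at day 2, 5 members were higher and 4 lower, against 34.9% and 33.3% of tested genes. AGHMT at day 2 left 3 members higher and 6 lower, against 38.0% and 37.4%. By day 7 the split under GMT was 8 higher and 2 lower, beside 37.1% and 36.0% of tested genes. Under GHMT at day 7, 6 were higher and 2 lower, beside 36.3% and 35.6%. Under AGHMT at day 7, 3 were higher and 4 lower, beside 38.6% and 38.1%. With 10 members, these counts stand on few genes, so the members are described individually. The 3 comparisons of a day share their mock libraries and are not independent of each other.

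**Figure D1:**
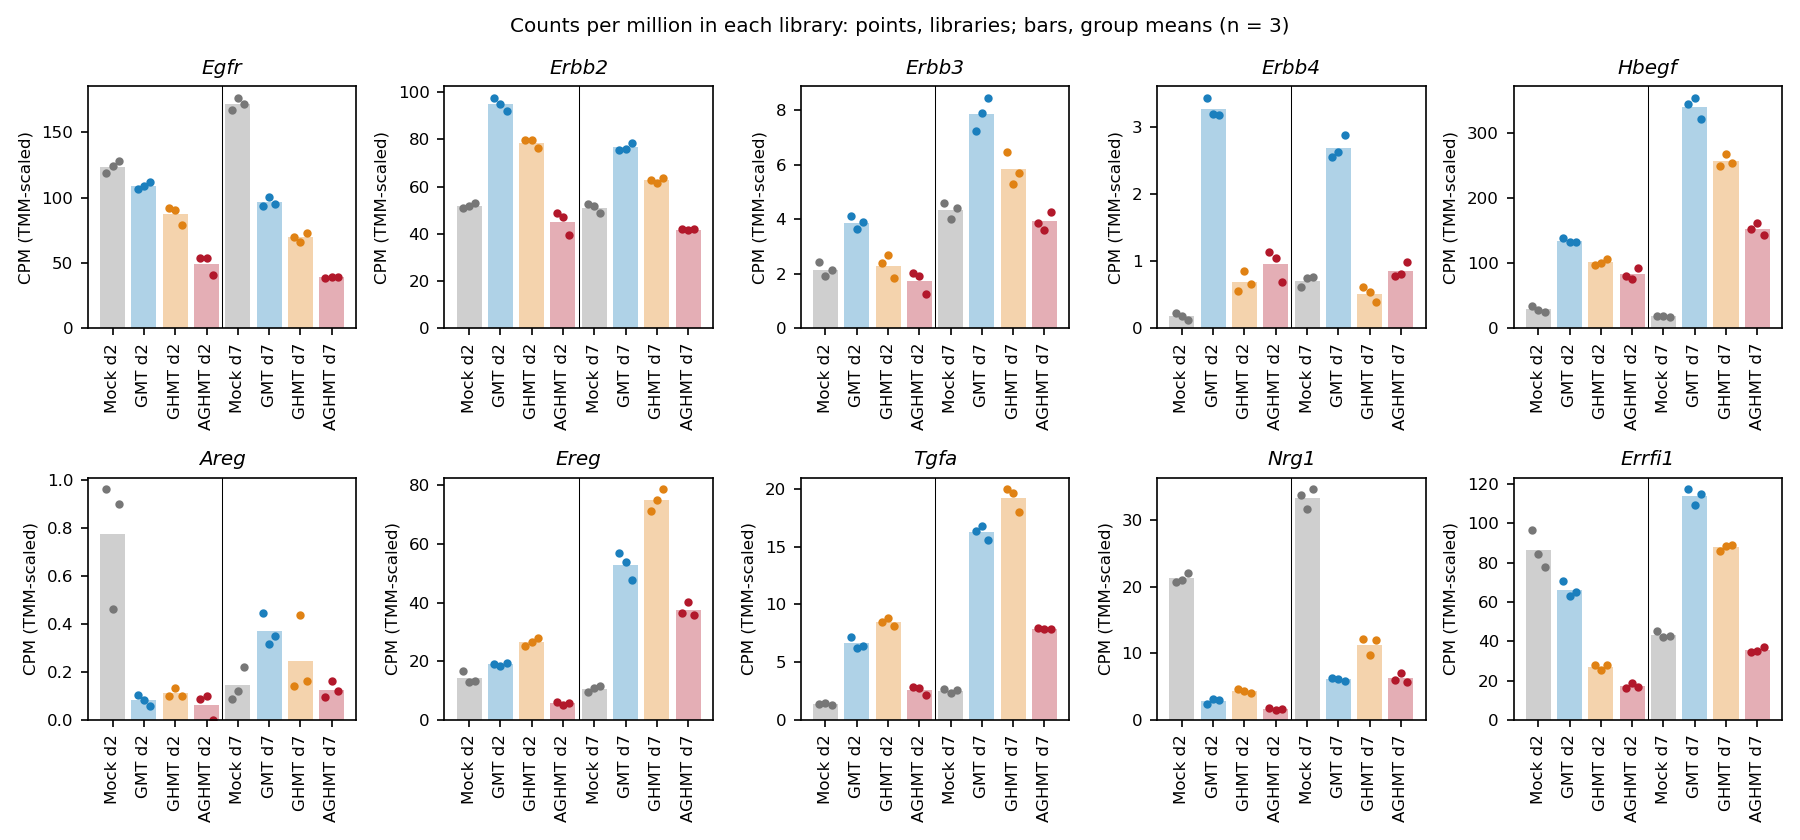
Each panel plots 1 member, with CPM on the vertical axis and the 8 groups (mock, GMT, GHMT and AGHMT at day 2, left of the line, and at day 7, right of it) on the horizontal axis. Points are libraries and bars are means of 3 libraries. Egfr steps down from mock to AGHMT at both days, while Hbegf stands at 18.5, 19.3 and 17.2 CPM in the mock libraries of day 7 and at 346, 355 and 322 CPM under GMT.

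Egfr (ENSMUSG00000020122, chromosome 11, 16752203-16918158 on GRCm38), the receptor of EGF itself, fell step by step from mock to AGHMT. At day 7 it stood at 168, 177 and 172 CPM in the mock libraries, 93.5, 101 and 95.4 CPM in GMT, 70.1, 65.9 and 73.2 CPM in GHMT and 38.4, 39.2 and 39.6 CPM in AGHMT. The 4 groups did not overlap, and each larger cocktail went with a lower level. Against mock the log2 fold change at day 7 was -0.83 ± 0.07 (adjusted p = 1.27e-10) under GMT, -1.303 ± 0.07 (adjusted p = 2.61e-14) under GHMT and -2.14 ± 0.08 (adjusted p = 1.89e-18) under AGHMT, the last a 4.4-fold drop. At day 2 the levels were 119, 124 and 128 CPM in the mock libraries, 106, 109 and 112 CPM in GMT, 92.1, 90.7 and 79.2 CPM in GHMT and 54.2, 53.8 and 40.8 CPM in AGHMT. The order was the same, with smaller steps for GMT and GHMT. The day 2 changes were -0.50 ± 0.07 (adjusted p = 1.10e-06) for GHMT and -1.32 ± 0.07 (adjusted p = 2.58e-14) for AGHMT, the latter -1.18 without replicate 3. The small day 2 difference under GMT, -0.18 ± 0.07 (adjusted p = 0.0297), lost its call without mock replicate 2 or 3 or GMT replicate 1 or 2 (adjusted p = 0.0593 to 0.0999).

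Erbb2 (ENSMUSG00000062312, chromosome 11, 98412470-98437716), the partner receptor with no ligand of its own, went the other way under the smaller cocktails. The day 2 levels of Erbb2 were 50.9, 51.6 and 52.96 CPM in the mock libraries, 97.8, 94.8 and 92.02 CPM in GMT, 79.8, 79.6 and 76.4 CPM in GHMT and 48.8, 47.1 and 39.4 CPM in AGHMT. GMT and GHMT stood above mock without overlap and AGHMT stood just below it. The log2 fold changes were 0.87 ± 0.05 (adjusted p = 1.85e-13), 0.60 ± 0.05 (adjusted p = 3.00e-10) and -0.20 ± 0.05 (adjusted p = 0.00183). The AGHMT value moved to -0.10 (adjusted p = 0.0335) without replicate 3 of AGHMT and was not called when only the compared libraries were fitted (adjusted p = 0.0655). At day 7 Erbb2 stood at 52.8, 51.6 and 49.01 CPM in the mock libraries, 75.6, 75.9 and 78.5 CPM in GMT, 63.04, 61.4 and 63.8 CPM in GHMT and 41.9, 41.5 and 42.1 CPM in AGHMT, again above mock for GMT and GHMT and below it for AGHMT. There the changes were 0.58 ± 0.05 (adjusted p = 4.09e-10), 0.29 ± 0.05 (adjusted p = 2.86e-05) and -0.29 ± 0.05 (adjusted p = 4.19e-05). Erbb2 shares 9 exon bases, 0.17% of its exon length, with Mien1 on the other strand.

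The ratio of these 2 receptors differed between mock and cocktails. Per kilobase of exon, the Egfr level over the Erbb2 level was 1.097 ± 0.0193 (SD, n = 3) in mock at day 2 and 1.55 ± 0.0777 at day 7. It was 0.53 ± 0.029, 0.511 ± 0.0295 and 0.504 ± 0.02503 under GMT, GHMT and AGHMT at day 2, and 0.579 ± 0.0268, 0.511 ± 0.0171 and 0.429 ± 0.00655 at day 7. The ratio was lower in each of the 18 cocktail libraries than in any of the 6 mock libraries, a comparison in which the exon lengths cancel. Between the cocktails the ratio overlapped at day 2, and at day 7 it was lowest in AGHMT.

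Erbb3 (ENSMUSG00000018166, chromosome 10, 128567523-128589652), the neuregulin receptor with weak kinase activity, was a low gene that peaked under GMT. Its day 7 levels were 4.61, 4.01 and 4.41 CPM in the mock libraries, 7.24, 7.88 and 8.46 CPM in GMT, 6.47, 5.302 and 5.71 CPM in GHMT and 3.87, 3.62 and 4.28 CPM in AGHMT. GMT and GHMT were above mock without overlap, and AGHMT overlapped mock. The log2 fold change at day 7 was 0.86 ± 0.12 (adjusted p = 4.35e-07) under GMT, 0.42 ± 0.12 (adjusted p = 0.00326) under GHMT and -0.14 ± 0.13 (adjusted p = 0.319) under AGHMT, the last not called. At day 2 the levels were 2.42, 1.92 and 2.12 CPM in the mock libraries, 4.11, 3.64 and 3.89 CPM in GMT, 2.38, 2.68 and 1.83 CPM in GHMT and 2.03, 1.91 and 1.27 CPM in AGHMT. Only GMT was called, with 0.85 ± 0.14 (adjusted p = 1.03e-05). GHMT differed by 0.10 ± 0.16 (adjusted p = 0.613) and AGHMT by -0.32 ± 0.17 (adjusted p = 0.0858), the latter passing the threshold (adjusted p = 0.0365) without AGHMT replicate 1.

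Erbb4 (ENSMUSG00000062209, chromosome 1, 68032186-69108059), the neuregulin receptor of developing heart muscle, stayed near the limit of counting except under GMT. At day 2 the mock libraries held 8, 7 and 4 counts, GMT 133, 113 and 107, GHMT 17, 26 and 20 and AGHMT 39, 32 and 25 counts, or 3.44, 3.19 and 3.18 CPM in GMT against 0.233, 0.1895 and 0.1197 CPM in mock. All 9 cocktail libraries were above all mock libraries, and GMT stood apart from the other cocktails. The log2 fold changes were 4.14 ± 0.21 (adjusted p = 6.96e-15), 1.92 ± 0.30 (adjusted p = 3.87e-06) and 2.37 ± 0.27 (adjusted p = 2.76e-08). By day 7 mock held 21, 25 and 24 counts, GMT 86, 92 and 107, GHMT 22, 20 and 12 and AGHMT 25, 25 and 33 counts. Only GMT remained called above mock, by 1.91 ± 0.17 (adjusted p = 2.31e-10). GHMT differed from mock by -0.44 ± 0.23 (adjusted p = 0.119) and AGHMT by 0.28 ± 0.21 (adjusted p = 0.262), and neither passed the threshold. Even at its highest, in GMT at day 2, Erbb4 was at 0.264 CPM per kilobase of exon, beside 18.2 for Erbb2 in the same libraries.

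**Figure D2:**
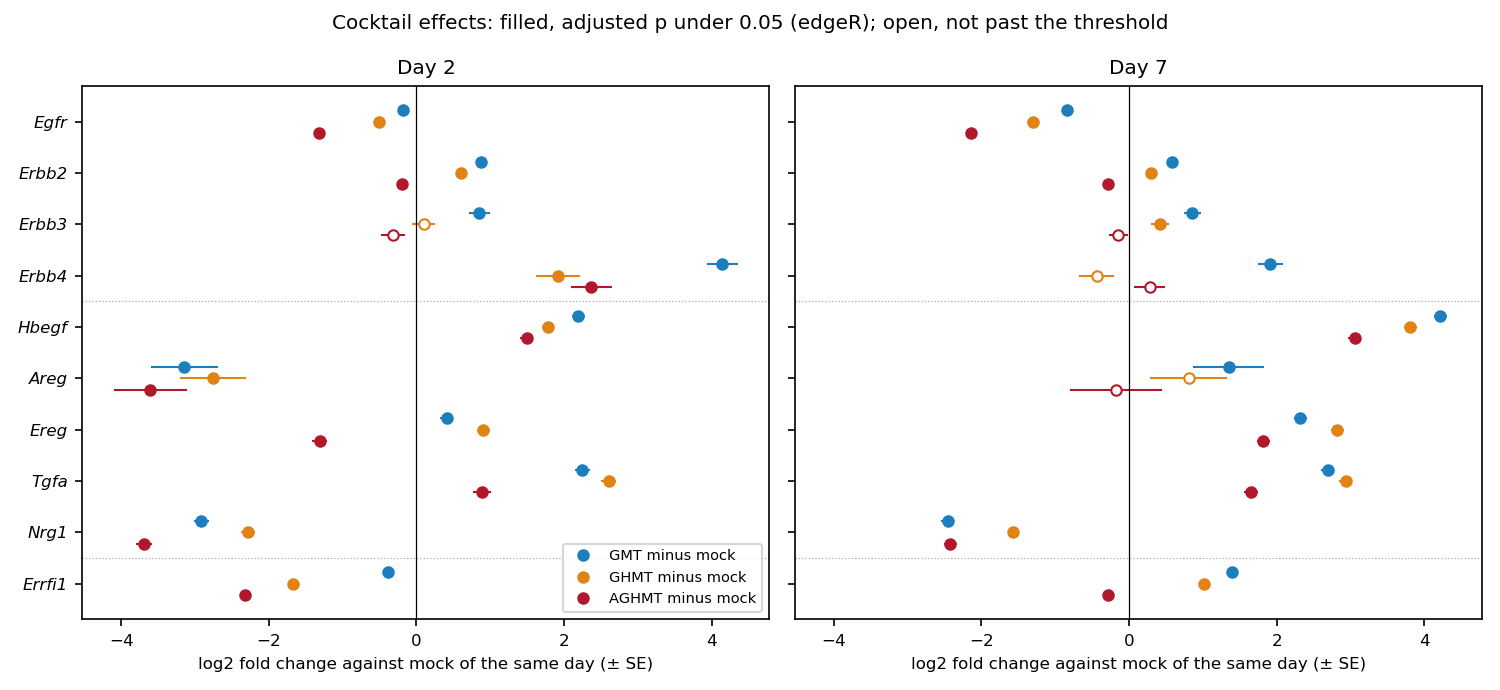
Log2 fold change against the mock of the same day (horizontal axis, bars ± SE) for each member, day 2 on the left and day 7 on the right, with GMT in blue, GHMT in orange and AGHMT in red. Filled points passed an adjusted p of 0.05 (edgeR) and open points did not. Hbegf and Tgfa are right of 0 and Egfr and Nrg1 left of it in all 6 comparisons.

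Hbegf (ENSMUSG00000024486, chromosome 18, 36504927-36515805), the heparin-binding ligand of EGFR and ERBB4, rose most among the ligands at day 7 under each cocktail. At day 7 Hbegf read 18.5, 19.3 and 17.2 CPM in the mock libraries, 346, 355 and 322 CPM in GMT, 250.5, 268 and 254 CPM in GHMT and 152, 162 and 143 CPM in AGHMT. Every cocktail library was well above every mock library, and the order was GMT, GHMT, AGHMT. The rise was 18.6-fold under GMT, log2 4.22 ± 0.09 (adjusted p = 5.88e-23), 14.03-fold under GHMT, log2 3.81 ± 0.09 (adjusted p = 3.59e-22), and 8.31-fold under AGHMT, log2 3.05 ± 0.09 (adjusted p = 2.16e-20). Day 2 gave 34.6, 28.4 and 25.6 CPM in the mock libraries, 139, 133 and 133 CPM in GMT, 97.7, 99.8 and 107 CPM in GHMT and 79.8, 75.96 and 92.98 CPM in AGHMT. The same order was already present, without overlap between mock and any cocktail. The log2 fold changes at day 2 were 2.19 ± 0.08 (adjusted p = 1.18e-17), 1.78 ± 0.08 (adjusted p = 7.96e-16) and 1.49 ± 0.08 (adjusted p = 2.05e-14). Of all tested genes, 3.82% changed by as much or more under GMT at day 7.

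Tgfa (ENSMUSG00000029999, chromosome 6, 86195223-86275719), TGF-alpha, a ligand of EGFR alone, rose in all 6 comparisons and peaked under GHMT. The day 7 values were 2.66, 2.32 and 2.57 CPM in the mock libraries, 16.4, 16.8 and 15.6 CPM in GMT, 20.005, 19.7 and 17.98 CPM in GHMT and 7.99, 7.87 and 7.85 CPM in AGHMT. No cocktail library overlapped mock, and the AGHMT libraries lay between mock and the other cocktails. Its log2 fold changes were 2.69 ± 0.08 (adjusted p = 1.78e-19) under GMT, 2.93 ± 0.08 (adjusted p = 2.35e-20) under GHMT and 1.65 ± 0.09 (adjusted p = 2.32e-14) under AGHMT. At day 2 Tgfa was at 1.399, 1.49 and 1.29 CPM in the mock libraries, 7.18, 6.23 and 6.44 CPM in GMT, 8.49, 8.81 and 8.16 CPM in GHMT and 2.81, 2.76 and 2.19 CPM in AGHMT. The changes there, 2.25 ± 0.10 (adjusted p = 6.43e-16), 2.603 ± 0.10 (adjusted p = 1.99e-17) and 0.88 ± 0.12 (adjusted p = 4.91e-07), followed the same order. Gm43917 on the other strand shares 1.82% of its exon bases, and the strand setting of the counting is not given in the sources used here.

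Ereg (ENSMUSG00000029377, chromosome 5, 91074622-91093646), epiregulin, a ligand of EGFR and ERBB4, depended on the day under AGHMT. At day 2 the levels of Ereg were 16.7, 12.8 and 13.3 CPM in the mock libraries, 19.02, 18.3 and 19.5 CPM in GMT, 25.3, 26.6 and 28.1 CPM in GHMT and 6.17, 5.13 and 5.85 CPM in AGHMT. GMT and GHMT were above mock and AGHMT was below it, each without overlap. The log2 fold changes were 0.41 ± 0.09 (adjusted p = 2.43e-04), 0.90 ± 0.09 (adjusted p = 1.55e-09) and -1.31 ± 0.10 (adjusted p = 2.42e-11). At day 7 they were 9.58, 10.7 and 11.5 CPM in the mock libraries, 56.95, 54.02 and 47.8 CPM in GMT, 71.3, 75.1 and 78.8 CPM in GHMT and 36.4, 40.2 and 35.8 CPM in AGHMT. All cocktails were then above mock, AGHMT included, and GHMT was highest. Those changes were 2.32 ± 0.09 (adjusted p = 8.61e-18), 2.82 ± 0.09 (adjusted p = 1.38e-19) and 1.82 ± 0.09 (adjusted p = 1.57e-15). Ereg shares 3.42% of its exon bases with the antisense gene Gm19610, whose reads cannot be told apart here.

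Nrg1 (ENSMUSG00000062991, chromosome 8, 31814551-32884029), neuregulin 1, the ligand of ERBB3 and ERBB4, fell in all 6 comparisons. The mock libraries held 20.8, 20.98 and 22.1 CPM at day 2, while GMT held 2.35, 3.16 and 2.998, GHMT 4.66, 4.37 and 4.03 and AGHMT 1.797, 1.41 and 1.69 CPM. Every cocktail library lay below every mock library, and GHMT kept the most. At day 7 the values were 33.8, 31.7 and 34.7 CPM in the mock libraries, 6.26, 6.11 and 5.88 CPM in GMT, 12.2, 9.82 and 11.97 CPM in GHMT and 5.95, 7.08 and 5.74 CPM in AGHMT, in the same arrangement, with GMT and AGHMT overlapping. The log2 fold changes were -2.91 ± 0.10 (adjusted p = 1.29e-18), -2.29 ± 0.10 (adjusted p = 7.44e-17) and -3.69 ± 0.11 (adjusted p = 5.78e-20) at day 2 and -2.46 ± 0.09 (adjusted p = 1.66e-18), -1.56 ± 0.08 (adjusted p = 4.35e-15) and -2.42 ± 0.09 (adjusted p = 2.52e-18) at day 7. Thus the Nrg1 transcript fell while those of the EGFR ligands Hbegf and Tgfa rose. Gm26578 on the other strand shares 4.66% of the exon bases of Nrg1.

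Areg (ENSMUSG00000029378, chromosome 5, 91139599-91148432), amphiregulin, a ligand of EGFR, was the least counted ligand, with at most 33 counts in a library. At day 2 the mock libraries held 33, 17 and 30 counts, GMT 4, 3 and 2, GHMT 3, 4 and 3 and AGHMT 3, 3 and 0 counts. All cocktail libraries were below all mock libraries. The fitted log2 fold changes were -3.14 ± 0.45 (adjusted p = 1.13e-06), -2.75 ± 0.45 (adjusted p = 6.79e-06) and -3.61 ± 0.49 (adjusted p = 4.26e-07), with wide errors, and the AGHMT value was -2.99 without replicate 3, which had 0 counts. At day 7 mock held 3, 4 and 7 counts, GMT 15, 11 and 13, GHMT 5, 16 and 5 and AGHMT 3, 5 and 4 counts. Mock itself had dropped, and GMT was above it by 1.35 ± 0.48 (adjusted p = 0.0145), a call lost without mock replicate 1 (adjusted p = 0.0691) or GMT replicate 1 (adjusted p = 0.0521). GHMT, at 0.81 ± 0.52 (adjusted p = 0.169), and AGHMT, at -0.18 ± 0.62 (adjusted p = 0.8), did not pass the threshold.

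Errfi1 (ENSMUSG00000028967, chromosome 4, 150853919-150868892), the feedback inhibitor of the receptors, changed direction between the days under GMT and GHMT. At day 2 it was highest in mock, with 96.7, 84.5 and 77.5 CPM in the mock libraries, 70.8, 63.2 and 64.9 CPM in GMT, 27.96, 25.4 and 27.8 CPM in GHMT and 16.4, 18.7 and 16.6 CPM in AGHMT. Each cocktail group lay below mock and below the cocktail with 1 factor less, without overlap. The log2 fold changes were -0.38 ± 0.06 (adjusted p = 8.65e-06), -1.67 ± 0.07 (adjusted p = 3.63e-17) and -2.33 ± 0.07 (adjusted p = 6.27e-20), the last a 5.01-fold drop. At day 7 Errfi1 stood at 44.9, 41.95 and 42.6 CPM in the mock libraries, 117, 109 and 115 CPM in GMT, 85.99, 88.3 and 88.9 CPM in GHMT and 34.7, 34.8 and 36.8 CPM in AGHMT. GMT and GHMT were now above mock and AGHMT was below it. The day 7 changes were 1.399 ± 0.06 (adjusted p = 4.38e-16), 1.02 ± 0.06 (adjusted p = 3.02e-13) and -0.28 ± 0.07 (adjusted p = 4.86e-04).

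At day 2 Areg and Errfi1 were both highest in mock and lower under every cocktail, and their RefSeq promoters, printed here to show what they share, carry the same pair of short motifs. RefSeq tables of GRCm38.p6 hold a window of 250 bases before to 50 bases after a start for 6 of the 10 members (Egfr, Erbb2, Erbb4, Areg, Tgfa and Errfi1), 7 windows in all. Both strands were searched for 7 motifs. The CRE (TGACGTCA), the element read by CREB and ATF factors, was in 1.79% of 32851 windows and in the Areg window and 1 of the 2 Errfi1 windows. The TATA box (TATAAA), in 13.6% of windows, was in the same 2 member windows, 31 bases before the start in Areg and 28 in Errfi1. The CRE began 61 bases before the start in Areg and 51 in Errfi1. The last 150 bases before the start are given on the plus strand, with CRE and TATA letters in capitals. Egfr, which fell in the same comparisons at day 2, holds neither, and its window is shown for contrast. Nrg1 was also lower under every cocktail at day 2 but has no window, so its promoter was not searched.
Areg, chr5:91139449-91139598: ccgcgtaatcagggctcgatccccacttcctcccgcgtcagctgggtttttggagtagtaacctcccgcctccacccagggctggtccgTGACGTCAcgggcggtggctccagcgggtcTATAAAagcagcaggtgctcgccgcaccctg
Errfi1, chr4:150854920-150855069: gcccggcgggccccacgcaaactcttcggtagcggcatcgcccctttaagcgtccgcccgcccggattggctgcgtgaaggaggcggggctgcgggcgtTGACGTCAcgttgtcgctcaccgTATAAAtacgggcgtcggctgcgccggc
Egfr, chr11:16752053-16752202: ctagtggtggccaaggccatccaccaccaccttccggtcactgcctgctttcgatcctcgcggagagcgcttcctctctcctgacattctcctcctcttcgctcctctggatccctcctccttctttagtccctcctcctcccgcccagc
The letters of a GATA site (AGATAA), in 11.2% of windows, were in the other Errfi1 window, 85 bases before its start. None of the 7 held the T-box letters AGGTGTGA, which 1.28% of windows have. None held those of an AP-1 site, TGANTCA, found in 7.81%. MEF2 and CArG sites, in 0.557% and 1.63% of windows, were not found in them either. The CRE and AP-1 letters do not overlap as searched. A match says only that the letters stand there. Areg and Errfi1 had a Pearson correlation of 0.687 in log2 CPM over the 24 libraries, which share 8 groups. Some other pairs of members were higher, such as Hbegf and Tgfa (0.889) and Ereg and Tgfa (0.871). The Tgfa window holds neither CRE nor TATA. At day 7 Errfi1 was called against mock under all 3 cocktails and Areg only under GMT. Whether the motifs bear on the levels was not tested.

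In GHMT, the cocktail with Hand2, receptors were lower and 3 ligands higher than in GMT at both days. Gata4, Mef2c and Tbx5 were also higher in GHMT than in GMT at both days without overlap, Gata4 at 1479 ± 45.2 against 1142 ± 24.9 CPM at day 2. At day 2, 3 members were higher and 6 lower in GHMT, where 23.1% and 21.7% of tested genes were. At day 7 the counts were again 3 and 6, beside 18.7% and 18.8%. At both days Ereg, Tgfa and Nrg1 were higher, and all 4 receptors, Hbegf and Errfi1 were lower. Erbb4 had the largest difference, -2.23 ± 0.17 (adjusted p = 4.34e-11) at day 2 and -2.35 ± 0.18 (adjusted p = 5.74e-11) at day 7, with no overlap. Errfi1 differed by -1.29 ± 0.07 (adjusted p = 2.88e-14) at day 2 and by -0.38 ± 0.06 (adjusted p = 2.08e-05) at day 7. Nrg1 was 1.86-fold higher in GHMT at day 7, log2 0.89 ± 0.09 (adjusted p = 1.80e-08), and Ereg 1.42-fold, log2 0.50 ± 0.08 (adjusted p = 6.19e-06). Areg was called at neither day, although without GHMT replicate 2 its day 7 difference was -1.26 (adjusted p = 0.0451).

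In AGHMT, the cocktail with Akt1, most members were lower than in GHMT. The 2 cocktails did not differ in Akt1 alone: at day 7 Gata4 stood at 633 ± 5.18 CPM in AGHMT and 1142 ± 85.9 CPM in GHMT, Tbx5 at 1730.2 ± 25.9 and 2746 ± 62.01 and Mef2c at 1643 ± 20.7 and 2016 ± 33.9. These 3 were lower in AGHMT at both days without overlap, and Hand2 was lower at day 2 and higher at day 7. The part of these factors in the results was not tested. At day 2, 8 members were lower and the other 2, Erbb4 and Areg, were not called, where 25.7% of tested genes were higher and 27.0% lower. At day 7, 1 was higher and 8 lower, beside 25.0% and 23.6%. The 8 lower ones at each day were Egfr, Erbb2, Erbb3, Hbegf, Ereg, Tgfa, Nrg1 and Errfi1. Ereg fell 4.64-fold at day 2, log2 -2.22 ± 0.10 (adjusted p = 1.80e-15), and 2.003-fold at day 7, log2 -1.002 ± 0.08 (adjusted p = 7.12e-11). Tgfa differed by -1.72 ± 0.09 (adjusted p = 4.83e-14) at day 2 and -1.28 ± 0.07 (adjusted p = 1.06e-13) at day 7. Both ligands were without overlap between the cocktails, and only 1.7% of tested genes differed by as much as Ereg at day 2. Errfi1 differed by -0.65 ± 0.07 (adjusted p = 4.12e-08) at day 2 and by -1.31 ± 0.07 (adjusted p = 1.87e-14) at day 7. The Erbb3 difference at day 2, -0.41 ± 0.17 (adjusted p = 0.042), overlapped between groups and was lost without AGHMT replicate 3 (-0.21, adjusted p = 0.314), without GHMT replicate 1 or 2 (adjusted p = 0.102 and 0.217), or with only the compared libraries (0.176). Erbb4 was higher in AGHMT at day 7, 0.72 ± 0.22 (adjusted p = 0.0101), a call lost without replicate 3 of GHMT (adjusted p = 0.0711) or of AGHMT (adjusted p = 0.0683). Its day 2 difference, 0.45 ± 0.21 (adjusted p = 0.092), passed without AGHMT replicate 3 (0.66, adjusted p = 0.0174) or GHMT replicate 2 (0.63, adjusted p = 0.0428).

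In mock cells alone, 5 members were higher at day 7 than at day 2 and 4 lower, where 29.7% and 25.8% of tested genes were. Egfr rose by 0.48 ± 0.07 (adjusted p = 3.41e-06), Nrg1 by 0.65 ± 0.08 (adjusted p = 6.56e-08) and Tgfa by 0.85 ± 0.12 (adjusted p = 2.29e-06). The receptors Erbb3, 1.01 ± 0.14 (adjusted p = 1.34e-06), and Erbb4, 1.95 ± 0.29 (adjusted p = 4.04e-06), rose from low levels. Hbegf, Ereg, Areg and Errfi1 fell, with log2 fold changes of -0.69 ± 0.09 (adjusted p = 4.23e-07), -0.43 ± 0.10 (adjusted p = 4.98e-04), -2.401 ± 0.41 (adjusted p = 2.38e-05) and -0.998 ± 0.06 (adjusted p = 1.87e-12). Erbb2 stood at 50.9, 51.6 and 52.96 CPM and then 52.8, 51.6 and 49.01 CPM, and its difference, -0.02 ± 0.05 (adjusted p = 0.79), was not called. A day 7 effect of a cocktail is thus measured against a mock with more Egfr and less Errfi1 than at day 2.

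The change in each cocktail effect from day 2 to day 7 was tested as an interaction, which uses the mock libraries of both days. For GMT, 9 of 10 members differed in effect between the days, beside 49.5% of tested genes. For GHMT 8 differed, beside 49.3%, and for AGHMT 8, beside 50.9%. The largest shifts of well-counted members were those of Errfi1, Hbegf and Ereg. Errfi1 shifted upward by 1.78 ± 0.09 (adjusted p = 2.72e-14), 2.69 ± 0.09 (adjusted p = 1.90e-17) and 2.04 ± 0.10 (adjusted p = 5.63e-15) for GMT, GHMT and AGHMT. Hbegf shifted by 2.02 ± 0.12 (adjusted p = 3.52e-13), 2.03 ± 0.12 (adjusted p = 3.66e-13) and 1.56 ± 0.12 (adjusted p = 4.39e-11). For Ereg the shifts were 1.91 ± 0.13 (adjusted p = 3.99e-12), 1.92 ± 0.12 (adjusted p = 2.89e-12) and 3.13 ± 0.14 (adjusted p = 1.30e-15), the last turning a fall at day 2 into a rise at day 7. The Egfr effect moved further down, with shifts of -0.65 ± 0.10 (adjusted p = 6.79e-06), -0.80 ± 0.10 (adjusted p = 3.95e-07) and -0.82 ± 0.10 (adjusted p = 3.66e-07), and that of Erbb4 moved down too, with -2.23 ± 0.32 (adjusted p = 2.52e-06), -2.36 ± 0.38 (adjusted p = 1.39e-05) and -2.09 ± 0.36 (adjusted p = 2.73e-05). Mean Erbb4 in mock rose from 0.181 CPM at day 2 to 0.712 CPM at day 7. In GMT it went from 3.27 to 2.68 CPM, in GHMT from 0.696 to 0.518 and in AGHMT from 0.958 to 0.861 CPM. The Erbb3 effect did not pass the threshold for any cocktail, with 0.01 ± 0.20 (adjusted p = 0.989), 0.33 ± 0.20 (adjusted p = 0.188) and 0.17 ± 0.21 (adjusted p = 0.522).

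**Figure D3:**
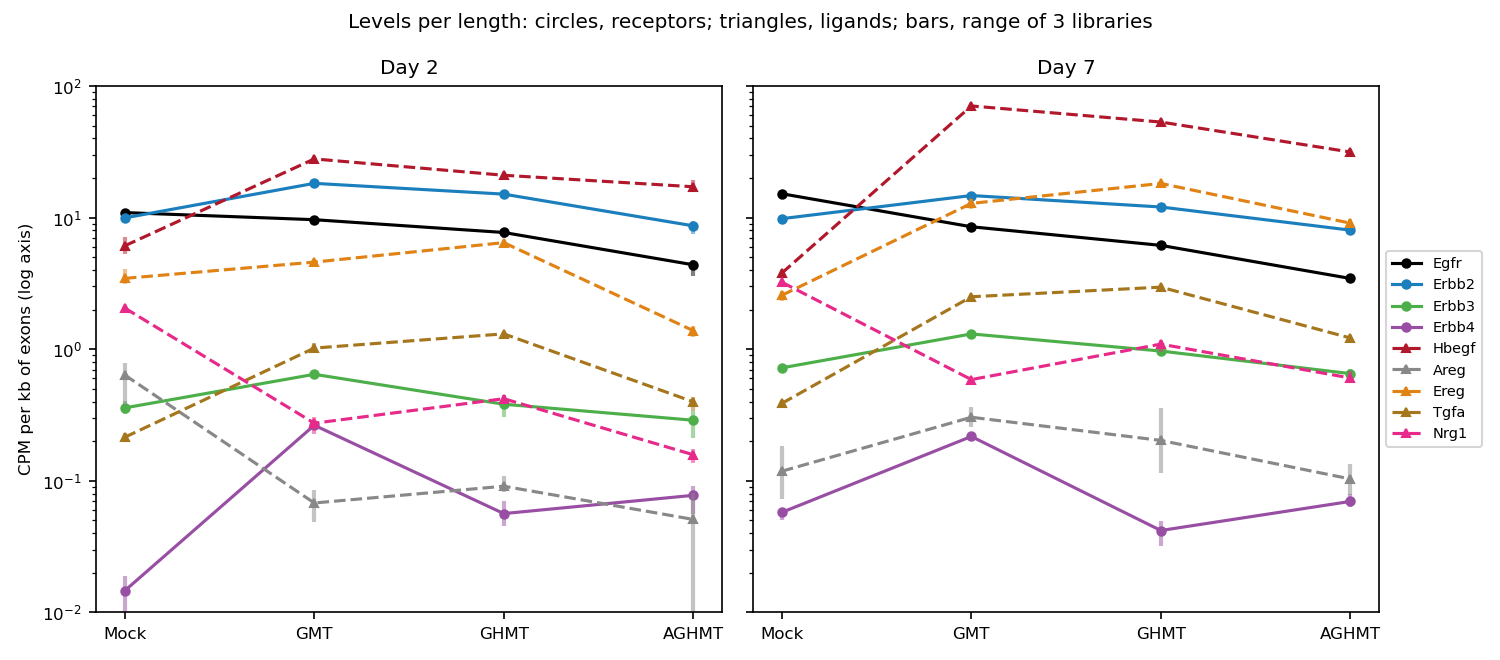
Mean CPM per kilobase of exon (vertical log axis) of the receptors (circles) and ligands (triangles) in mock, GMT, GHMT and AGHMT, day 2 on the left and day 7 on the right, with bars for the range of 3 libraries (a library at 0, for Areg in AGHMT at day 2, runs off the axis). Hbegf lies below Egfr and Erbb2 in mock and above all other receptors and ligands under each cocktail.

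Per kilobase of exon, the order of the members differed between mock and the cocktails. In mock at day 7, Egfr led at 15.2 CPM per kilobase, followed by Errfi1 at 12.1, Erbb2 at 9.81, Hbegf at 3.79, Nrg1 at 3.23 and Ereg at 2.57. Erbb3, Tgfa, Areg and Erbb4 were all under 1 there. In mock at day 2 Errfi1 led at 24.1, ahead of Egfr at 10.9 and Erbb2 at 9.95. Under every cocktail and at both days Hbegf led. It stood at 70.5 in GMT, 53.2 in GHMT and 31.5 in AGHMT at day 7. Behind it at day 7 came Errfi1 at 31.8, 24.5 and 9.902, and then Ereg and Erbb2. Ereg, at 18.2, was above Erbb2, at 12.04, in GHMT. In GMT their order was the reverse, 12.8 and 14.7. Neighbours in the order whose libraries overlapped were Errfi1 and Erbb2, and Nrg1 and Erbb4, in GMT at day 2, and Areg and Erbb3 in mock at day 2. Egfr and Errfi1 overlapped in GHMT and in AGHMT at day 2, Errfi1 and Ereg in AGHMT at day 7, Nrg1 and Erbb3 in GHMT at both days and in AGHMT at day 7, and Erbb4 and Areg in AGHMT at both days. Exon lengths here are unions over all annotated transcripts, so a gene with unused long exons reads low.

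The genes whose log2 CPM followed a member most closely over the 24 libraries were taken from 10632 genes of at least 5 CPM on average, by Pearson correlation. The libraries fall into 8 groups, so these values mostly compare 8 group means. For Egfr they were Il17rd (0.985), Rab3d (0.973) and Abcc5 (0.967). Hbegf was followed by Nppa (0.984), Dok5 (0.983) and Bhlhe41 (0.983), where Nppa, the atrial natriuretic peptide, is a heart muscle gene. At day 7 Nppa itself stood, as mean ± SD of 3 libraries, at 589.9 ± 39.6 CPM in GMT, 461 ± 37.1 in GHMT and 124 ± 9.38 in AGHMT, against 0.362 ± 0.183 CPM in mock. The sum of the 10 heart muscle markers had the opposite order of cocktails at day 7, with 9015 to 9524 CPM in GMT, 15046 to 16068 in GHMT and 20111 to 21110.0 in AGHMT. A sum follows its most abundant genes. The median log2 fold change of the 10 against mock was 8.38 in GMT, 10.24 in GHMT and 10.12 in AGHMT at day 7. Nearest to Tgfa were Mboat7 (0.986), Vav2 (0.975) and Il10rb (0.974), to Nrg1 Plpp5 (0.982), Chac1 (0.975) and Apobr (0.966), and to Errfi1 Ywhag (0.980), Inf2 (0.973) and Gcnt2 (0.968). For Ereg the genes were Rock2 (0.959), Serpinb9b (0.958) and Fam149a (0.955) and for Erbb3 Thsd4 (0.965), Slco2a1 (0.951) and Zbtb7c (0.935). The low members gave Vhl (0.949), Adcy2 (0.942) and Col23a1 (0.937) for Erbb4 and Spred3 (0.863), Junb (0.855) and St5 (0.854) for Areg. Junb is an AP-1 subunit induced by growth factors.

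Genes known to be induced by ERK signalling, the cascade below these receptors, were read as a list of 24, all of them tested. At day 2, GMT had 10 higher and 12 lower (median log2 fold change -0.10), GHMT 4 higher and 17 lower (-0.55) and AGHMT 2 higher and 20 lower (-1.54), each against mock. At day 7 the counts were 17 higher and 6 lower in GMT (0.60), 19 higher and 3 lower in GHMT (0.47) and 10 higher and 12 lower in AGHMT (-0.23). The medians over all tested genes in these 6 comparisons lay between -0.003 and 0.012. In these comparisons, 33.1% to 38.6% of all tested genes were called in each direction. Under GMT at day 2 and AGHMT at day 7 the list was split between both directions. The list thus went from mostly lower at day 2 to mostly higher at day 7 under GHMT, the same change of direction that Errfi1 made. In mock itself the list had 4 higher and 15 lower at day 7 than at day 2 (median -0.33), beside 29.7% and 25.8% of tested genes. Mock is the reference of both days. Against GHMT, AGHMT had 3 higher and 19 lower at day 2 (-0.98), beside 25.7% and 27.0% of tested genes. At day 7, 20 of 24 were lower (-0.89), beside 23.6% of tested genes. Dusp6, the ERK phosphatase that ERK itself induces, rose at day 7 from 26.3 ± 0.4699 CPM in mock to 137 ± 3.83 in GMT and 86.2 ± 1.74 in GHMT, and to 34.3 ± 0.299 in AGHMT. Its log2 fold changes were 2.39 ± 0.05 (adjusted p = 9.84e-23), 1.72 ± 0.05 (adjusted p = 8.66e-20) and 0.39 ± 0.05 (adjusted p = 5.20e-07). At day 2 Dusp6 was higher under GMT, 0.73 ± 0.05 (adjusted p = 3.15e-12), and lower under GHMT, -0.47 ± 0.05 (adjusted p = 2.57e-08), and AGHMT, -1.903 ± 0.06 (adjusted p = 1.41e-19). Spry1 and Spry2, feedback inhibitors of the cascade, were lower than mock under all 3 cocktails at day 7. Spry1 stood at 112 ± 6.95 CPM in mock and 11.8 ± 1.07 CPM in GMT, -3.25 ± 0.08 (adjusted p = 3.84e-22), and Spry2 at 54.3 ± 1.16 CPM in mock and 11.5 ± 0.586 CPM in AGHMT, -2.24 ± 0.06 (adjusted p = 2.24e-20). Spry4, another sprouty gene of the list, differed from them at day 2. It was higher under GHMT, 1.81 ± 0.04 (adjusted p = 1.46e-21), where Spry1 (-1.51) and Spry2 (-1.93) were lower. Under GMT at day 2 Spry4 was not called, 0.07 ± 0.05 (adjusted p = 0.167), and Spry1 (-2.00) and Spry2 (-1.63) were lower. Errfi1 is itself a known ERK target, so its agreement with the list is no separate observation.

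**Figure D4:**
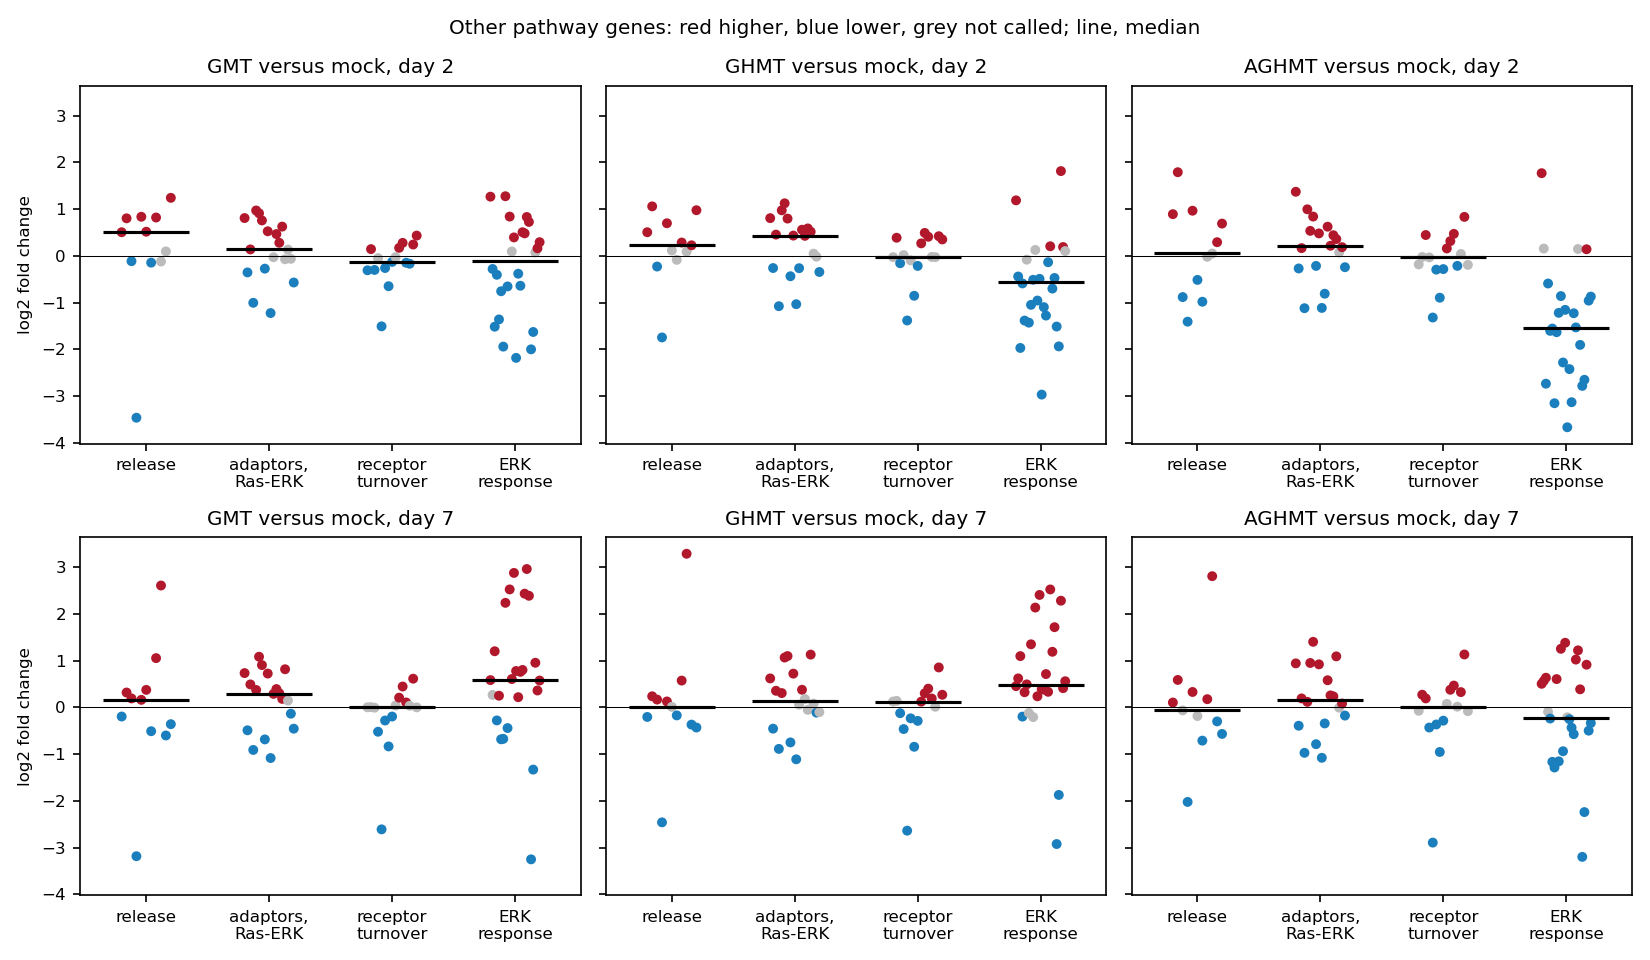
Each point is a gene of 1 of 4 pathway lists, with its log2 fold change against the mock of the same day on the vertical axis, for the 3 cocktails (columns) at day 2 (top) and day 7 (bottom). Red points were called higher, blue lower and grey neither, and horizontal lines are list medians. The ERK response column has its median at -1.54 in AGHMT at day 2 and at 0.60 in GMT at day 7.

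Genes that free the ligands, pass the signal on or clear the receptors were called in both directions. Over all tested genes at day 7, 37.1% were higher and 36.0% lower under GMT, and 38.6% and 38.1% under AGHMT. Of the 11 genes of ligand release, the membrane proteases and their helpers, GMT at day 7 had 6 higher and 5 lower (median 0.16) and AGHMT 5 higher and 4 lower (-0.06). Adam12, a protease able to shed HB-EGF, fell from 161 ± 1.86 CPM in mock to 17.8 ± 1.33 CPM in GMT and 39.7 ± 3.199 CPM in AGHMT at day 7, -3.18 ± 0.12 (adjusted p = 1.60e-17) and -2.02 ± 0.12 (adjusted p = 3.92e-14). Of the iRhom pair, which escorts the sheddase ADAM17, Rhbdf2 rose under GMT, log2 1.05 ± 0.05 (adjusted p = 5.91e-15), and Rhbdf1 fell under AGHMT, log2 -0.71 ± 0.05 (adjusted p = 1.43e-12). At day 2 under GMT, 6 of the 11 release genes were higher and 3 lower, beside 33.9% and 33.1% of tested genes. There Adam17 rose from 89.2 to 127 CPM, log2 0.51 ± 0.04 (adjusted p = 4.02e-11). Adam10 rose from 182 to 318 CPM, log2 0.80 ± 0.05 (adjusted p = 7.92e-13), while Adam12 fell, log2 -3.46 ± 0.13 (adjusted p = 5.57e-18). Of 18 adaptors and Ras-ERK kinases, day 7 had 11 higher and 6 lower under GMT and 11 higher and 6 lower under AGHMT, with medians of 0.30 and 0.16. The adaptor Shc1 fell under GMT, log2 -0.91 ± 0.04 (adjusted p = 5.20e-16), and the phosphatase Ptpn11, which helps Ras activation, rose under AGHMT from 293 ± 2.94 to 776 ± 12.1 CPM, 1.402 ± 0.05 (adjusted p = 3.77e-19). In the list of 15 genes of receptor turnover and inhibition, 4 higher and 5 lower were called under GMT and 6 higher and 5 lower under AGHMT, with medians of 0.0022 and 0.016. Lrig3, of a family of receptor-binding membrane proteins, fell from 75.9 ± 0.812 CPM to 12.4 ± 0.712 CPM in GMT and 10.2 ± 1.53 CPM in AGHMT, -2.61 ± 0.08 (adjusted p = 2.72e-19) and -2.89 ± 0.09 (adjusted p = 5.54e-20). Socs5 fell under GMT, log2 -0.83 ± 0.04 (adjusted p = 7.25e-16), and the phosphatase Ptpn1 rose under AGHMT, log2 1.13 ± 0.04 (adjusted p = 2.77e-18).

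Of the 6 other ligands of the family, Egf, Btc, Nrg2 and Nrg4 had enough counts to be tested and Epgn and Nrg3 did not. Under GMT at day 7, 3 of the 4 were higher and Nrg4 was not called, beside 37.1% of all tested genes higher. GHMT and AGHMT had 1 of 4 higher each, Nrg2 and Nrg4, beside 36.3% and 38.6%. Nrg2, neuregulin 2, was also higher at day 2 under GMT, GHMT and AGHMT, log2 3.51 ± 0.38 (adjusted p = 1.14e-08), 2.13 ± 0.48 (adjusted p = 3.38e-04) and 1.79 ± 0.49 (adjusted p = 0.00216), from 0.144 ± 0.07802 CPM in mock to 1.67 ± 0.166 CPM in GMT. Egf, the founding ligand, stood at 7.15 ± 0.616 CPM in GMT and 1.55 ± 0.332 CPM in mock, 2.21 ± 0.14 (adjusted p = 5.89e-13). Under GHMT and AGHMT Egf was at 2.005 ± 0.0561 and 1.65 ± 0.204 CPM and was not called, with 0.37 ± 0.17 (adjusted p = 0.0592) and 0.09 ± 0.18 (adjusted p = 0.657).

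Markers of other cells moved with the groups. The 14 macrophage markers summed to 395 to 576 CPM in mock at day 7 and to 55.1 to 68.8, 59.96 to 64.7 and 42.1 to 59.7 CPM in GMT, GHMT and AGHMT, where 13, 14 and 14 of 14 were lower. At day 2 they summed to 55.4 to 57.7 CPM in mock and to 40.7 to 51.3, 34.1 to 39.9 and 13.8 to 17.7 CPM. Macrophages are a known source of HB-EGF and epiregulin, and the mock libraries of day 7, where these markers were highest, held the lowest Hbegf of all groups. Ereg was lowest in AGHMT at day 2, 5.72 ± 0.535 CPM, where the macrophage markers were lowest too. In mock at day 7, where the markers were highest, Ereg stood at 10.6 ± 0.973 CPM. Its highest level, 75.04 ± 3.73 CPM, was in GHMT at day 7. The 13 epithelial and mesothelial markers summed to 176 to 200.1 CPM in mock, 263 to 281 in GMT, 638 to 690.3 in GHMT and 171 to 191 CPM in AGHMT at day 7, of which Msln made up 571 ± 26.2 CPM in GHMT. The 9 neural crest and Schwann cell markers, cells that use Erbb3, summed to 56.7 to 60.6 CPM in mock and 55.3 to 56.9, 40.5 to 47.9 and 31.5 to 35.1 CPM in GMT, GHMT and AGHMT at day 7. The 10 endothelial markers summed to at most 18.5 CPM in any library, and Cldn5 was at 0 counts in all 3 libraries of 6 groups. The part of these cells in the results was not tested.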

How the data were processed

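Total RNA of 24 libraries in 8 groups of 3 was sequenced, and groups and replicate numbers came from the labels. The deposited table holds raw counts of reads per gene, as the authors deposited them. Per the submitters' processing notes, the authors used featureCounts 1.4.6, DESeq2 1.6.3, HISAT2 2.0.1 and Trim Galore 0.4.1 with GRCm38, in an order not given there. The strand setting is not given in the sources used here, so reads of overlapping genes may be mixed. A deposited log2 table was not used. No 2 replicates agreed within counting noise (chi-square per degree of freedom of at least 1.489), and each library was treated as 1 replicate. Such scatter may be technical and does not show that the libraries came from separate cultures. Genes were filtered with filterByExpr and fitted with edgeR 4.0.16 in R 4.3.3 (TMM factors, quasi-likelihood F test, 1 mean per group, 16 residual degrees of freedom). Tests were two-sided, with p-values adjusted by Benjamini-Hochberg over 17576 genes in each of 14 comparisons. The biological coefficient of variation was 5.551%. Exon lengths and coordinates came from GENCODE M21. The code was tested on simulated counts.

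The members and lists were chosen with earlier results of these data known. Besides the members, the text names from each pathway list the 2 genes with the smallest adjusted p under GMT and the 2 under AGHMT at day 7 (at least 5 CPM in the higher group), and for each member the 3 genes of closest log2 CPM (prior count 2). Some genes that these rules pick are not reported here. Other genes named, Nppa, Msln, Btc, Nrg2, Nrg4, Epgn, Nrg3, Adam10, Adam17 and Spry4, were chosen after their values were seen. Alternatives were DESeq2 1.42.0, RLE factors, each library left out, no filter, the replicate number as a block, and a fit of only the compared libraries. Depth, 29345957 to 37495178 counts, limits genes at a few counts.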

Additional observations from a re-analysis of the deposited data

Results flagged for a closer look

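The day 7 effect of a cocktail, its difference from mock, differed from its day 2 effect for most members by an interaction test (edgeR, adjusted p under 0.05), and 25 such results were singled out. Values are the log2 effect at day 7 minus that at day 2, and the comparisons share their mock libraries. Under GMT, Egfr was lower by this measure (-0.6538), as were Erbb2 (-0.2886) and Erbb4 (-2.2298). Hbegf (2.0237), Areg (4.4945), Ereg (1.9082), Tgfa (0.4426), Nrg1 (0.4543) and Errfi1 (1.778) were higher. The Tgfa and Nrg1 calls under GMT were lost without single libraries. The Tgfa call was lost without mock day 2 replicate 2 (adjusted p = 0.0895) or mock day 7 replicate 2 (0.0609), and the Nrg1 call without GMT day 2 replicate 1 (0.0588).

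Under GHMT the lower members were Egfr (-0.8013), Erbb2 (-0.3058) and Erbb4 (-2.3556). The higher ones were Hbegf (2.0304), Areg (3.5628), Ereg (1.9202), Nrg1 (0.7224) and Errfi1 (2.6935).

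Under AGHMT, Egfr (-0.8185) and Erbb4 (-2.0868) were lower, and Hbegf (1.5634), Areg (3.4271), Ereg (3.1336), Tgfa (0.7652), Nrg1 (1.2732) and Errfi1 (2.0416) were higher. The Areg values rest on 33 counts or fewer in any library.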

How the results depend on the processing

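Of 140 results, 10 members in 14 comparisons, 124 kept their call and direction under every alternative run. In 16 the call or direction changed somewhere, and in 5 of these the direction did, none of which had been called. DESeq2, RLE size factors and the replicate block changed no call of a member. The cause of the changes was not tested.

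The Erbb2 difference of mock between days was 0.0156 with no filter on low counts, and ran from -0.0403 to 0.0123 over single libraries left out. Erbb3 in GHMT against mock at day 2 ran from -0.0303 to 0.2341 over the same omissions, and Areg in AGHMT against mock at day 7 from -0.443 to 0.2405. The day difference of the Erbb3 effect was -0.0392 with no filter and -0.0845 to 0.0817 with a library left out for GMT, and -0.0517 to 0.2792 for AGHMT. With no filter, the day difference of the GMT effect on Tgfa was not called (adjusted p = 0.111, edgeR). Without AGHMT day 2 replicate 3, the day difference of the AGHMT effect on Erbb2 was called (-0.21, adjusted p = 0.00231, edgeR). Over all single omissions the number of members called stayed within 1 of the reported count in every comparison.

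Replicate numbers are shared between groups in the labels. Deviations of same-numbered libraries correlated at -0.213 to 0.274 (median 0.002) and those of other pairs at -0.184 to 0.309. Between AGHMT and GHMT at day 2 the same-numbered values were 0.094, 0.072 and 0.274. With so few libraries per group, these values cannot settle whether same-numbered libraries shared a culture or batch. With the replicate block, 10 members were called for GMT at day 7, as without it.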
